A study of Gallus gallus with 6 samples.

Results

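The genes described here are the transcription factor ATF4, its upstream kinase EIF2AK3 and genes that ATF4 is known to drive when cells are short of amino acids or stressed. They were chosen by symbol from a list of 9. The deposited FPKM table holds a row for 8 of them among 15656 named genes, and TRIB3 was not analysed here. A filter on low values, a mean of at least 1 FPKM over the 6 libraries, was passed by 6 of the 8 and by 11587 genes in all, and these were tested. FPKM is the number of fragments scaled for gene length and library size, so levels of different genes can be compared on it.

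The libraries came from the jejunal mucosa, which absorbs nutrients in the small intestine, of breeder hens aged 28 weeks. Leuang Hang Kao hens made up the heat-adapted group (libraries HA1, HA2 and HA3) and SUT hens the heat-sensitive group (libraries HS1, HS2 and HS3), as the labels spell these genotypes. All hens of both groups had been kept at 36 °C for 6 h, so the comparison holds no response to heat within a group. RNA of 4 hens was pooled for each library, which hides the spread between hens, and group and genotype cannot be told apart. The series' design text speaks of random assignment to the groups, while the labels give each group its own genotype.

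Protein synthesis is slowed in stressed cells when a kinase phosphorylates the initiation factor eIF2. EIF2AK3, also called PERK, does this when unfolded proteins build up in the endoplasmic reticulum, and its relative EIF2AK4, also called GCN2, does so when amino acids are short. In mammals the same event raises translation of the ATF4 messenger RNA, and ATF4 protein then switches on genes for amino acid synthesis and uptake, among them ASNS, PHGDH and PSAT1, and the stress genes DDIT3, CHAC1, SESN2 and TRIB3. Because this step acts on translation and protein phosphorylation, messenger RNA levels measure only a part of the pathway.

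The libraries differed in ways that bear on all values below. The deposited read counts, which stand in another row order than the gene symbols, summed to between 10829957 and 13070796 per library. HS2 stood apart on some lists: it held the highest value of 27 of 31 heat shock genes tested and of 14 of 14 fibroblast and matrix markers, and of 0 of 15 enterocyte markers, where the share over all genes tested was 22.3%. The summed FPKM of the enterocyte list was 20840 in that library, 41010 and 43150 in the other HS libraries and 35030 to 51890 in the HA ones, so enterocyte markers were abundant in every library. HA1 stood apart on other lists, by the median of log2(FPKM + 1) centred on each gene's mean. It was the lowest library for smooth muscle markers (-1.36) and cell cycle genes (-0.80), and the highest for enterocyte markers (0.49). In the HA libraries the FPKM columns and the read-count columns did not match each other. For 154 genes whose count row was found through the HS libraries, the ratio of read count to FPKM, with gene length taken out, varied over genes with a log2 SD of 0.80 to 1.04 in the HA columns, against at most 0.00185 in the HS columns by which the rows were found. A search for matching rows through the HA columns alone peaked at 2.93 SD above its surroundings, against 20.8 SD through the HS columns. The search through the HS columns covered 6050 genes, and how many pairs arise by coincidence was not estimated. Other orders of the HA columns were not tried. It is therefore unclear whether the HA FPKM columns or the HA read-count columns hold the labelled libraries, or whether only their order differs. Every HA value and every HA minus HS difference below rests on the FPKM columns being the labelled ones.

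ATF4 messenger RNA was abundant, while the serine synthesis enzymes PSAT1 and PHGDH were at 1.27 FPKM or less in every library. By mean FPKM over the 6 libraries the order was ATF4 at 759, ASNS at 39.2, EIF2AK3 at 15.1, DDIT3 at 6.23, CHAC1 at 2.88, SESN2 at 2.84, PSAT1 at 0.665 and PHGDH at 0.157. ATF4 ranked between 130 and 216 from the top among all 15656 genes in every library. CHAC1 and SESN2, neighbours in this order, changed places between libraries: CHAC1 was the higher in HA1, HA2 and HS2, and SESN2 in the others. The ranges of DDIT3 and CHAC1 overlapped through a single high CHAC1 value, but DDIT3 was above CHAC1 in every library. The ranges of PSAT1 and PHGDH overlapped too, and PSAT1 was above PHGDH in every library. No gene of the 6 tested passed between the groups at an adjusted p below 0.05 by limma, with p-values adjusted over all genes tested by the Benjamini-Hochberg method, where 0.0949% of all genes passed (0.0604% higher and 0.0345% lower in the HA libraries). At an unadjusted p below 0.05, 1 of the 6, DDIT3, was lower and 0 were higher, against 10.9% and 7.13% of all genes tested and 18% in both directions. Without HS2, 0 of the 6 passed, against 0.0866% of all genes, and 1 was at an unadjusted p below 0.05, against 11.2%.

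**Figure D1:**
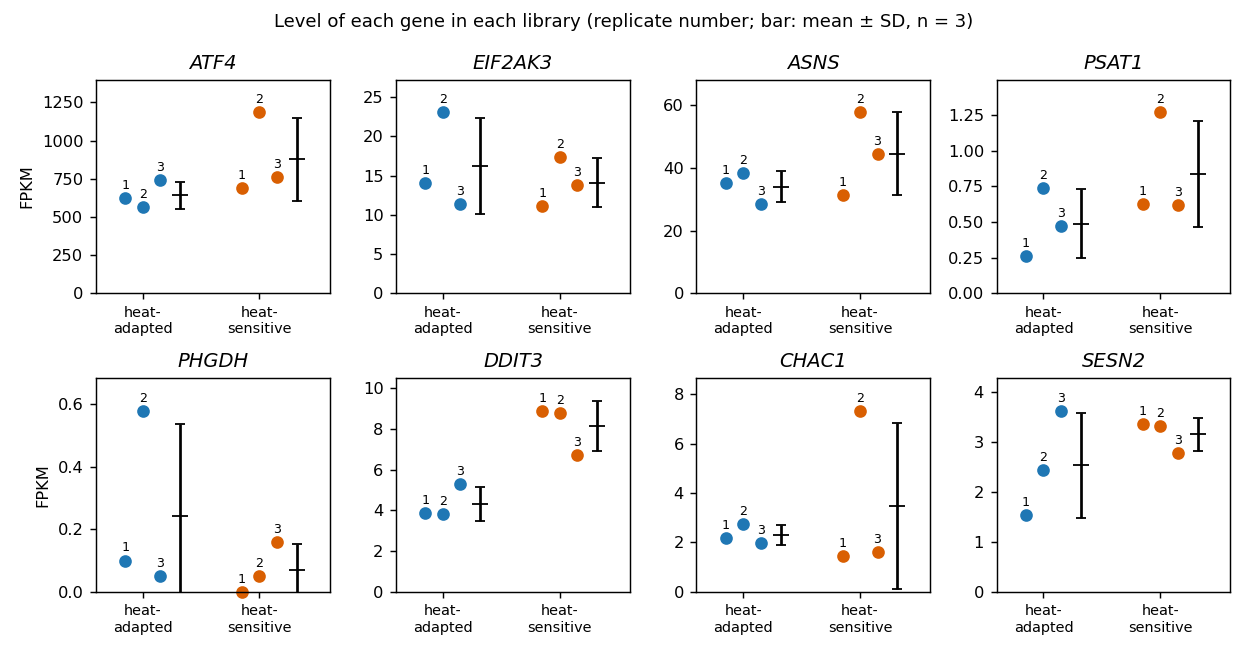
FPKM of the 8 genes in each library (dots, numbered 1 to 3 by library; blue, HA; orange, HS), with the mean and SD of each group of 3 beside them; each panel has its own axis from 0. The groups are apart only for DDIT3 (3.83 to 5.28 against 6.73 to 8.90), and HS2 is the highest library for ATF4, ASNS, CHAC1 and PSAT1.

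EIF2AK3, the sensor kinase of the endoplasmic reticulum, was at 14.1, 23.1 and 11.4 FPKM in HA1, HA2 and HA3 and at 11.1, 17.3 and 13.8 FPKM in HS1, HS2 and HS3. Replicate 2 was the highest library of each group, and the groups overlapped. The log2 difference, HA minus HS on the log2(FPKM + 1) scale throughout, was 0.15 (limma SE 0.25, 95% confidence interval -0.43 to 0.73, adjusted p = 0.791). It was -0.12 without HA2 and 0.30 without HS2.

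ATF4, the effector of the pathway, was at 622, 563 and 741 FPKM in the HA libraries and at 687, 1186 and 759 FPKM in the HS libraries. HS2 stood above all others, and the remaining 5 libraries lay between 563 and 759 FPKM with the groups overlapping. The group means were 642 ± 90.7 (SD, n = 3) and 877 ± 269 (SD, n = 3). The log2 difference was -0.42 (limma SE 0.23, 95% confidence interval -0.94 to 0.10, adjusted p = 0.368), and it was -0.18 without HS2 (adjusted p = 0.790).

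ASNS, the enzyme that makes asparagine from aspartate and glutamine, was at 35.1, 38.2 and 28.5 FPKM in the HA libraries and at 31.3, 57.7 and 44.6 FPKM in the HS libraries. The 2 highest libraries were HS2 and HS3, while HS1 lay inside the HA range. The log2 difference was -0.35 (limma SE 0.22, 95% confidence interval -0.84 to 0.15, adjusted p = 0.429), and it was -0.14 without HS2 (adjusted p = 0.836). Without HS1, the lowest HS library for this gene, the difference was -0.575, still short of the threshold (limma adjusted p = 0.281).

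PSAT1, which makes phosphoserine, did not pass the filter, with 0.26, 0.74 and 0.47 FPKM in the HA libraries and 0.63, 1.27 and 0.62 FPKM in the HS ones. PHGDH, the first enzyme of serine synthesis from a glycolytic intermediate, was at 0.1, 0.58 and 0.05 FPKM in the HA libraries and was listed at 0, 0.05 and 0.16 FPKM in the HS ones. The groups overlapped for both genes. No difference between the groups was detected at these levels. When all genes above 0 in any library were fitted, the log2 differences were -0.30 for PSAT1 (limma adjusted p = 0.449) and 0.19 for PHGDH (limma adjusted p = 0.568). PSPH, the last enzyme of the same route, was at 5.63 to 10.7 FPKM in the HA and 7.68 to 18.6 FPKM in the HS libraries, with its highest value in HS2; it was chosen after its values were seen.

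DDIT3, also called CHOP, a transcription factor that can drive cell death under lasting stress, was the only one of the 6 tested whose groups did not overlap. It was at 3.85, 3.83 and 5.28 FPKM in the HA libraries and at 8.90, 8.78 and 6.73 FPKM in the HS libraries. Every HA library was below every HS one, a pattern shown by 12.9% of all genes tested in this direction and by 1 of the 6. The means were 4.32 ± 0.831 and 8.14 ± 1.22 FPKM (SD, n = 3 each), 1.88 times as high in the HS group. The log2 difference was -0.78 (limma SE 0.18, 95% confidence interval -1.19 to -0.37, unadjusted p = 0.00197, adjusted p = 0.108). It did not pass over all genes, of which 1.81% had a smaller p. Unlike ATF4, ASNS and CHAC1, DDIT3 was not highest in HS2, and without that library its difference was -0.73 (limma adjusted p = 0.282). An exact permutation test of its 6 values gave p = 0.1, 2-sided, the smallest that 3 against 3 libraries allow. Every gene without overlap gets this value, and 21.9% of all genes tested were without overlap in either direction. The test therefore adds nothing to the lack of overlap. RefSeq's gene table, used for names, did not hold the symbol DDIT3, so the row was identified by the deposited symbol only.

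CHAC1, which degrades glutathione, varied widely within the HS group. It was at 2.18, 2.75 and 1.97 FPKM in the HA libraries and at 1.44, 7.34 and 1.6 FPKM in the HS libraries. HS2 was the highest library, and the other HS libraries were the lowest. The log2 difference was -0.19 (limma SE 0.44, 95% confidence interval -1.21 to 0.83, adjusted p = 0.851). Without HS2 it turned to 0.38 (limma SE 0.22, adjusted p = 0.554), and each HA library was then above both remaining HS ones, as were those of 11.4% of all genes tested without that library. CHAC2, its relative with the same activity, was at 4.25, 5.67 and 4.24 FPKM in the HA and 4.66, 2.30 and 4.64 FPKM in the HS libraries, and its lowest value was in the library where CHAC1 was highest.

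SESN2, a leucine-binding protein that restrains mTORC1, was at 1.53, 2.44 and 3.63 FPKM in the HA libraries and at 3.36, 3.32 and 2.78 FPKM in the HS libraries. Both the lowest and the highest library were HA. The log2 difference was -0.27 (limma SE 0.23, 95% confidence interval -0.80 to 0.26, adjusted p = 0.565), and it was -0.05 without HA1. SESN1, its relative, was far more abundant, at 118 to 141 FPKM in the HA and 114 to 141 FPKM in the HS libraries, while SESN3 was at 2.55 to 4.66 FPKM and 3.23 to 5.44 FPKM. The relatives CHAC2, SESN1 and SESN3 were chosen after their values were seen.

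**Figure D2:**
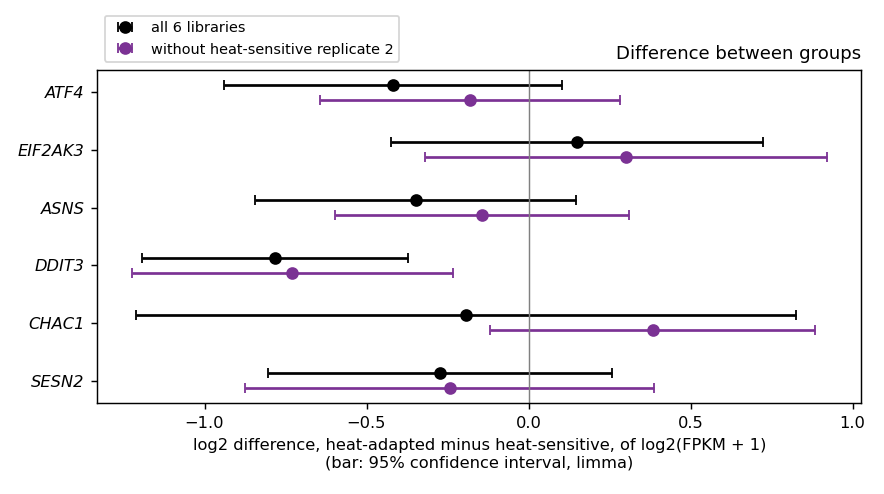
Log2 difference of each of the 6 tested genes, HA minus HS, with its 95% confidence interval from limma, over all 6 libraries (black) and without HS2 (purple). The interval of DDIT3 lies below 0 in both, that of each other gene spans 0 in both, and the CHAC1 difference turns from -0.19 to 0.38.

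Over the 6 tested genes, 5 had a negative difference, and the median log2 difference was -0.31, beside -0.06 and 58.3% negative over all genes tested. Without HS2, 4 of the 6 were negative and the median was -0.16, beside -0.05 and 58.1% over all genes. Rescaling each library to the same total moved the median of all genes from -0.06 to 0.05 and that of the 6 genes from -0.31 to -0.21. In bulk tissue, fewer cells of a type and less RNA per cell cannot be told apart. Lists of cell type markers and of the cell cycle differed between the groups. In them 0 genes passed the threshold, where 0.0949% of all genes did. At an unadjusted limma p below 0.05, 20 of 24 cell cycle genes were lower, beside 10.9% of all genes. Higher were 7 of 15 enterocyte markers, beside 7.13%. Lower at that p were also 6 of 12 smooth muscle, 3 of 14 fibroblast and 2 of 8 endothelial markers. Of B and plasma cell markers 5 of 12 were, of T and natural killer cell 3 of 14 and of macrophage 2 of 8. Without overlap were 20 lower cell cycle genes and 6 higher enterocyte markers, beside 12.9% and 9% of all genes. Of 15 enterocyte markers 14 were higher in the HA libraries (median log2 difference 0.52), while 24 of 24 cell cycle genes (-0.90), 12 of 12 smooth muscle (-0.98), 14 of 14 fibroblast (-0.41), 8 of 8 endothelial (-0.35), 12 of 12 B and plasma cell (-0.62), 12 of 14 T and natural killer cell (-0.29) and 6 of 8 macrophage (-0.22) markers were lower. Without HA1 the median was -0.51 for smooth muscle and -0.08 for macrophage markers, without HS1 it was -0.33 for B and plasma cell markers, and without HS2 it was -0.23 for fibroblast markers. Without HS2, 4 of the 15 enterocyte markers were lower. Goblet cell markers had a median of 0.10, which turned to -0.06 without HA1. Enteroendocrine markers had a median of 0.14, which turned to -0.23 without HA2, -0.17 at a mean of at least 5 FPKM, -0.08 with no filter and -0.05 with libraries rescaled to the same total. The 8 pancreatic acinar markers with a row were all under the filter. None of these markers was listed at 0 in every library. The part of cell composition in the differences of ATF4, DDIT3 and the other genes was not tested.

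HS2 carried higher values of some of these genes and not of others. Against the mean of HS1 and HS3 it was 4.83-fold higher for CHAC1, 1.64-fold for ATF4, 1.52-fold for ASNS and 1.39-fold for EIF2AK3, and 1.12-fold for DDIT3 and 1.08-fold for SESN2. On the log2(FPKM + 1) scale the excess was 1.73 for CHAC1, exceeded by 0.147% of all genes tested, 0.71 for ATF4, exceeded by 2.64%, and 0.61 for ASNS, exceeded by 3.97%. For DDIT3 it was 0.16, exceeded by 28.4%, and for SESN2 0.09, exceeded by 37.2%. HS2 is 1 library, so these values have no replicate. It was singled out with its values known, and these shares were not computed for the other libraries, so they are not a test. In the same library the summed FPKM of the heat shock list was 24720, against 9757 and 10430 in the other HS libraries and 7676 to 9023 in the HA ones. The list also differed between the groups. Of 31 tested genes 30 were lower in the HA libraries (median log2 difference -0.73). At an unadjusted limma p below 0.05, 19 were lower, beside 10.9% of all genes, and 0 passed. Without HS2, 30 were still lower (median -0.49). Then 17 were at an unadjusted p below 0.05, beside 11.2% of all genes, and 2 passed, beside 0.0866%. Whether cell composition or the heat shock state of the HS2 pool has a part in the ATF4, ASNS and CHAC1 values was not tested.

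**Figure D3:**
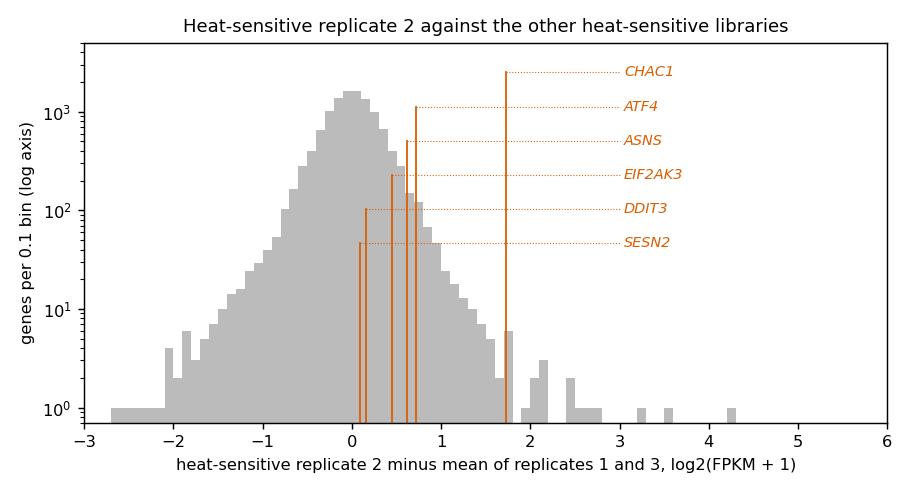
Number of genes (log axis) by the excess of HS2 over the mean of HS1 and HS3, on the log2(FPKM + 1) scale, with the 6 tested genes as orange lines. CHAC1 at 1.73 lies in the far right tail, ATF4 at 0.71 and ASNS at 0.61 on its shoulder, and DDIT3 at 0.16 and SESN2 at 0.09 near the middle.

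Other known ATF4 targets followed no single direction. Of the 50 genes of this list 42 had a row and 37 were tested. Of these, 25 were lower and 12 higher in the HA libraries, where 58.3% of all genes tested were lower. The median log2 difference was -0.19, or -0.07 with libraries rescaled to the same total. None passed by limma over all genes, where only 0.0949% of all genes tested did. The same share stands beside the counts that passed in the lists below. At an unadjusted p below 0.05, 8 were lower and 2 higher, where 10.9% and 7.13% of all genes tested were. The 4 of smallest p were CLGN, STC2, CEBPB and DDIT4. CLGN, a chaperone of the endoplasmic reticulum, was at 1.98, 3.56 and 3.38 FPKM in the HA and 8.28, 8.47 and 5.91 FPKM in the HS libraries (log2 difference -1.12, limma adjusted p = 0.0818). STC2, a secreted glycoprotein, went the other way, at 2.30, 3.19 and 3.59 FPKM against 2.09, 1.25 and 0.42 FPKM (log2 difference 0.89, limma adjusted p = 0.181).

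Groups did not overlap for CLGN or STC2. Of the 37 targets tested, 7 lower and 2 higher ones were without overlap, beside 12.9% and 9% of all genes tested. DDIT4, an inhibitor of mTORC1, was at 18.4, 17.3 and 26.7 FPKM in the HA and 25.1, 49.2 and 32.8 FPKM in the HS libraries, highest in HS2 (log2 difference -0.73, limma adjusted p = 0.205), and its difference was -0.47 without HS2. That library held the highest value of 19 of the 37 targets, 51.4% against 22.3% of all genes tested, with a median excess of 0.23 over the other HS libraries, beside -0.0008 over all genes. Without it 3 of the 38 then tested were at an unadjusted p below 0.05, a share below the 11.2% of all genes, and the median was -0.09.

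MTHFD2, a folate enzyme of mitochondria and known ATF4 target, was also highest in HS2. It was at 8.45, 6.73 and 7.38 FPKM in the HA and 9.52, 28.6 and 12.8 FPKM in the HS libraries (log2 difference -0.94, limma adjusted p = 0.222), and -0.51 without HS2. In the serine, glycine and folate list, 10 of 16 tested genes were lower and 6 higher in the HA libraries, beside 58.3% lower over all genes. The median was -0.22, and it was -0.11 without HA1, -0.09 without HS1 and -0.01 for genes at a mean of at least 5 FPKM. In this list 0 passed by limma, and 3 were lower and 1 higher at an unadjusted p below 0.05 (10.9% and 7.13% of all genes). TYMS, which makes thymidylate for DNA, was at 8.57, 11.7 and 13.1 against 26.8, 23.3 and 20.4 FPKM (log2 difference -1.03, limma adjusted p = 0.0701), and the cell cycle genes were lower in the same libraries. Whether the cell cycle has a part in the TYMS difference was not tested. GLDC, which breaks down glycine, was at 26.5, 12.6 and 15.8 against 12.2, 5.45 and 8.71 FPKM (log2 difference 0.98, limma adjusted p = 0.189). The groups did not overlap for these 3 genes, which were named for their small p. In the list 4 lower and 1 higher gene of 16 were without overlap, beside 12.9% and 9% of all genes tested.

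Of 14 tested transcription factors that pair with ATF4 or share its sites, 10 were lower in the HA libraries, where 58.3% of all genes were. The median log2 difference was -0.29, or -0.11 without HS2. By limma none passed, and 3 were lower and 0 higher at an unadjusted p below 0.05, beside 10.9% and 7.13% of all genes. These 3 were all C/EBP factors, dimer partners of ATF4 and DDIT3. CEBPA of the same list was not lower (log2 difference 0.03, limma adjusted p = 0.961). Without HS2 the differences were -0.49 for CEBPB, -0.52 for CEBPD and -0.29 for CEBPG, none at an unadjusted limma p below 0.05. Another gene of the list was then the only 1 below 0.05, where 11.2% of all genes tested were. CEBPB was at 5.58, 6.75 and 5.16 FPKM in the HA and 10.4, 12.0 and 6.99 FPKM in the HS libraries, without overlap (log2 difference -0.64, limma adjusted p = 0.182). Of the 14, 3 lower and 0 higher genes were without overlap, beside 12.9% and 9% of all genes tested. CEBPD had a log2 difference of -0.59 (limma adjusted p = 0.211) and CEBPG of -0.41 (limma adjusted p = 0.271), and the groups overlapped for both. ATF3, another stress factor of this list, was at 14.5 to 26.1 FPKM in the HA and 14.1 to 23.2 FPKM in the HS libraries. Both ATF3 and CEBPA were chosen after their values were seen. CEBPB, CEBPG and ATF3 were also counted among the other ATF4 targets above, so the lists are not separate evidence.

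The next list holds the eIF2 machinery, upstream of ATF4. Of 23 tested eIF2 kinases, subunits, exchange factors and phosphatase regulators, 15 were lower and 8 higher, beside 58.3% lower over all genes tested. The median was -0.09, and it became 0.03 with libraries rescaled to the same total. None passed by limma, where only 0.0949% of all genes tested did. At an unadjusted p below 0.05, 2 were lower and 1 higher, shares below the 10.9% and 7.13% of all genes. EIF2AK2, the eIF2 kinase that senses double-stranded RNA and an interferon-induced gene, was at 22.7, 20.9 and 17.4 FPKM in the HA and 14.2, 13.3 and 17.6 FPKM in the HS libraries (log2 difference 0.41, limma adjusted p = 0.237). EIF2B2, a subunit of the exchange factor that recycles eIF2, was at 21.8, 27.3 and 20.5 against 29.3, 31.1 and 31.8 FPKM, without overlap (log2 difference -0.40, limma adjusted p = 0.211). Of the 23, 3 lower and 0 higher genes were without overlap, beside 12.9% and 9% of all genes tested. Among the eIF2 kinases, EIF2AK1 was the most abundant per length, at 31.1 to 43.8 FPKM over the 6 libraries, and EIF2AK4, the amino acid sensor, was at 7.59 to 11.1 FPKM; both were chosen after their values were seen.

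In the other branches of the response to unfolded proteins, 22 of 30 tested genes were lower in the HA libraries, beside 58.3% of all genes. The median was -0.19, or -0.08 with libraries rescaled to the same total. None passed by limma, and 4 were lower and 1 higher at an unadjusted p below 0.05, where 10.9% and 7.13% of all genes were. Groups did not overlap for 9 lower genes and 1 higher gene of the 30, beside 12.9% and 9% of all genes tested. PDIA6, which forms disulfide bonds, was at 87.1, 94.7 and 73.3 FPKM in the HA and 113, 134 and 120 FPKM in the HS libraries (log2 difference -0.52, limma adjusted p = 0.152). HSP90B1, the HSP90 of the endoplasmic reticulum, was at 339.7, 337 and 267 against 422, 527 and 406 FPKM (log2 difference -0.52, limma adjusted p = 0.196). The markers of B cells and of plasma cells, the latter rich in endoplasmic reticulum, were lower in the same libraries. Their summed FPKM was 13460 to 20720 in the HA against 28290 to 31760 in the HS libraries. Most of this sum came from a single gene, IGLL1, at 11080 to 18010 against 24490 to 27130 FPKM, while 12 of 12 tested markers were lower. The part of these cells in the values of the unfolded protein genes was not tested.

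**Figure D4:**
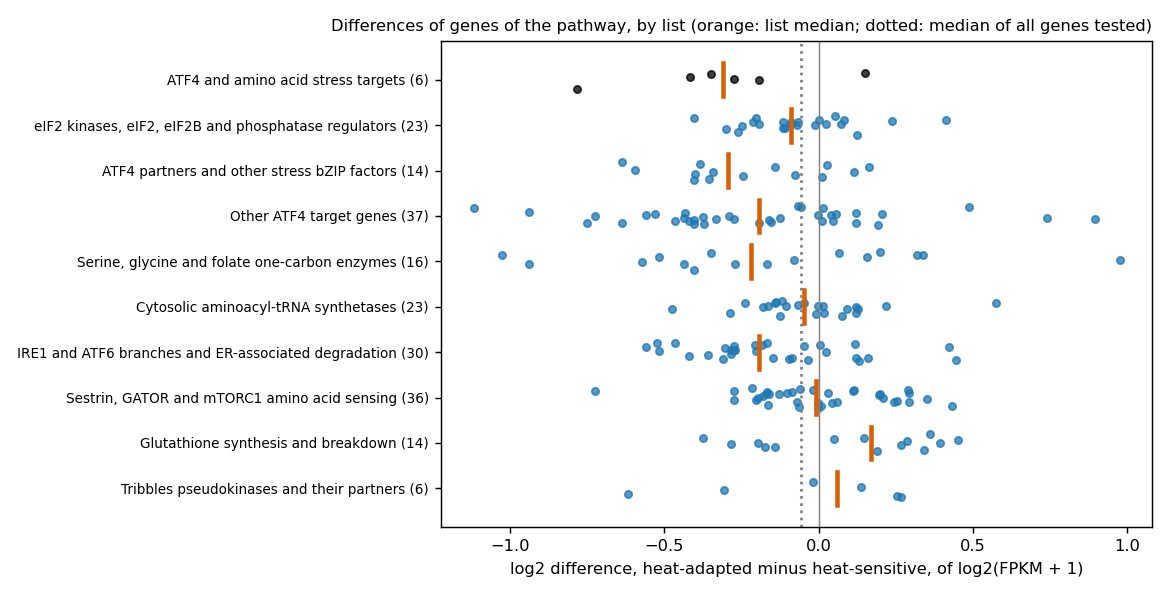
Log2 differences, HA minus HS on the log2(FPKM + 1) scale, of the tested genes of each list (dots), with the list median (orange) and the median of all genes tested (dotted, -0.06). List medians run from -0.31 for ATF4 and its targets to 0.17 for glutathione enzymes, and the genes of every list lie on both sides of 0.

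Amino acid charging and sensing showed no common direction. The list of cytosolic aminoacyl-tRNA synthetases, several of them ATF4 targets in mammals, also holds genes that are not synthetases, EEF1E1 among them. Of its 23 tested genes 14 were lower, beside 58.3% of all genes tested. The median was -0.05, which turned to 0.07 with libraries rescaled to the same total. None passed by limma, and 1 was higher and 1 lower at an unadjusted p below 0.05, below the shares of all genes, 7.13% and 10.9%. The lower one, EEF1E1, was at 49.2, 61.2 and 52.9 FPKM in the HA and 70.3, 85.3 and 72.3 FPKM in the HS libraries, without overlap. Of the 23, 2 lower and 0 higher genes were without overlap, beside 12.9% and 9% of all genes tested. The EEF1E1 log2 difference was -0.47 (limma adjusted p = 0.172), and -0.39 without HS2. The synthetase of aspartate, DARS, was at 124, 113 and 84.9 FPKM in the HA and 73.7, 51.4 and 94.0 FPKM in the HS libraries (log2 difference 0.57, limma adjusted p = 0.251), and its difference was 0.34 without HS2. In the list of sestrins, GATOR and mTORC1, 20 of 36 were lower, beside 58.3% of all genes tested. The median was -0.01 and became 0.11 with that rescaling. By limma none passed, and 2 were higher and 1 lower at an unadjusted p below 0.05, again below 7.13% and 10.9%. FLCN, which acts on the RAG GTPases of amino acid sensing, was at 28.1, 28.6 and 26.3 against 23.3, 22.1 and 21.8 FPKM, without overlap (log2 difference 0.29, limma adjusted p = 0.258). Of the 36, 4 higher and 4 lower genes were without overlap, beside 9% and 12.9% of all genes tested.

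Glutathione enzymes, the pathway of the CHAC1 substrate, were higher in the HA libraries in 9 of 14 tested genes, while 58.3% of all genes were lower. The median was 0.17, or 0.10 without HS2 and 0.05 with no filter. None passed by limma, and 1 was higher and 0 lower at an unadjusted p below 0.05, a share near the 7.13% of all genes that were higher. That gene was DPEP1, a brush border dipeptidase that acts late in glutathione breakdown, at 132, 148 and 109 FPKM against 101, 79.9 and 103 FPKM (log2 difference 0.45, limma adjusted p = 0.222), and enterocyte markers were higher in the same libraries. The part of cell composition in the DPEP1 difference was not tested. The relatives of TRIB3, pseudokinases that steer protein degradation, differed in sign. TRIB2 was at 9, 10.6 and 10.4 FPKM in the HA and 17.6, 17.8 and 12.6 FPKM in the HS libraries, without overlap (log2 difference -0.62, limma adjusted p = 0.142). TRIB1 was at 14.1, 10.8 and 12.0 against 9.84, 8.38 and 12.0 FPKM (log2 difference 0.27, limma adjusted p = 0.436), with 0.15 without HS2. This list of 6 tested genes also holds partners of these pseudokinases, such as MAP3K5. In it 3 were lower and 3 higher, beside 58.3% lower over all genes tested, and 0 passed by limma. TRIB2 alone was at an unadjusted p below 0.05, where 10.9% of all genes were lower. It was also the only gene of the 6 without overlap, where 12.9% of all genes tested were lower without overlap.

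**Figure D5:**
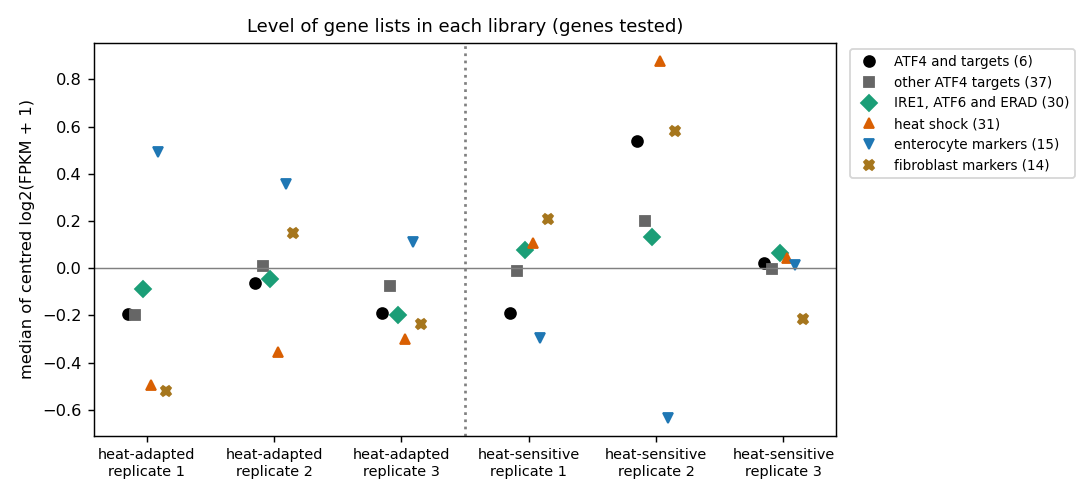
Median over the tested genes of each list (number in brackets) of log2(FPKM + 1) centred on each gene's mean, in each library; the dotted line parts the groups. HS2 holds the highest value of ATF4 and its targets (0.54), of the heat shock list (0.88) and of fibroblast markers (0.58), and the lowest of enterocyte markers (-0.63).

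Outside the list, the genes whose pattern over the 6 libraries was most like that of ATF4 on the log2(FPKM + 1) scale were KHDC4 with a Pearson's r of 0.988, LCAT with 0.986, PHF10 with 0.985, LOC107052229 with 0.984 and PCBP4 with 0.978. LCAT, a plasma enzyme that esterifies cholesterol, was at 9.21, 7.30 and 10.8 FPKM in the HA and 9.90, 20.1 and 10.1 FPKM in the HS libraries. All 5 had their highest value in HS2, as ATF4 did, which follows from choosing them by their likeness to ATF4. An r above 0.9 with ATF4 was held by 1.16% of all genes tested.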

How the data were processed

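RNA-seq was made from 6 libraries of hen jejunal mucosa. The submitters' processing notes name DESeq2, HTSeq 0.6.1, HISAT2 2.0.1, cutadapt 1.9.1 and build GRCg6a. The order of these steps, the strand setting and how shared reads were handled are not given in the sources used. Per the labels' protocols, libraries were amplified by PCR, with no molecular identifiers mentioned. The deposited FPKM values, rounded to 2 decimals, carry all results. The deposited read counts are treated as estimated counts, since 13.2% to 13.7% of them are not whole, and were used only for totals and the row check, in which they did not match the FPKM of the HA libraries. Across genes, mean FPKM and the mean count beside it had a Spearman's rho of -0.0048, so no count model was run, and the number of reads behind each gene's FPKM is unknown. In 19 rows the symbol had become a date, and these were left out.

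Genes at a mean of 1 FPKM or more were tested on log2(FPKM + 1), a scale that understates changes of low genes, with limma 3.58.1 in R 4.3.3, with a mean-variance trend and robust estimation, 2-sided, without a block, and checked on simulated data. Pools are the replicates, and p-values measure the spread between pools. Alternatives were another pseudocount, other filters, scalings, a replicate block, a plain fit and leaving out each library. Count rows were searched among rows of at least 10 FPKM and 50 reads, with log ratios within 0.004 and no other row within 0.02. RefSeq's GRCg7b gene table, used for names only, held 13838 of the symbols and 7 of the 8 genes described, the exception being DDIT3. The genes and lists were chosen with earlier results of these data known. Some genes stand in more than 1 list and are counted in each, among them CEBPB, MTHFD2, DDIT4, PSPH and several synthetases. Named genes are the 8, up to 4 of smallest p in each other list, drawn on where they bear on the pathway, and the 5 most like ATF4. Outside this rule, PSPH, CHAC2, SESN1, SESN3, ATF3, CEBPA, EIF2AK1, EIF2AK4 and the 5 genes most like DDIT3 were named after their values were seen.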

Additional observations from a re-analysis of the deposited data

How the results depend on the processing

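Of the 6 tested genes, 0 passed in any alternative that tested them, 13 or 14 for each. DDIT3 stayed negative in all 14, at -0.91 to -0.69 (limma adjusted p 0.0799 to 0.321), ATF4 at -0.57 to -0.18 and ASNS at -0.57 to -0.14. SESN2 was negative in the 13 alternatives that tested it. Leaving out 1 library at a time moved CHAC1 from -0.50 to 0.38, its only positive value, without HS2, and EIF2AK3 from -0.12, its only negative value, without HA2, to 0.36. The median of the tested genes ran from -0.54 to -0.16.

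Over all genes, 7 were higher and 4 lower at an adjusted p below 0.05. The counts were 24 and 14 with TPM, 11 and 9 with median-of-ratios scaling, and 22 and 24 with a replicate block. Genes lower numbered 8 with a pseudocount of 0.1, 2 with no filter and 1 with a mean FPKM of at least 5. Leaving out 1 library gave 4 to 25 higher and 2 to 39 lower, both highest without HA3. The causes were not tested. Same-numbered libraries shared deviations at r of -0.16, 0.11 and -0.19, so the numbers were not taken as pairs; DDIT3 was at an adjusted p of 0.173 with the block. PHGDH and PSAT1 were under 1.3 FPKM in every library, and whether depth limits them cannot be told, since the reads behind their FPKM are unknown.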

Other observations

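The genes most like DDIT3 were looked up after the values were known. On the log2(FPKM + 1) scale over the 6 libraries the genes most like DDIT3 were TRAIP, a ubiquitin ligase of DNA replication, with a Pearson's r of 0.997, MCTS1, PRPF4, E2F8, a cell cycle transcription factor, and PRDX4, a peroxiredoxin of the endoplasmic reticulum, with 0.991. TRAIP was at 1.61, 1.77 and 2.45 FPKM in HA1, HA2 and HA3 and at 4.14, 4 and 3.09 FPKM in HS1, HS2 and HS3. PRDX4 was at 64.8, 61.5 and 84.1 FPKM in the HA libraries and at 114, 114 and 98.3 FPKM in the HS ones. An r above 0.9 with DDIT3 was held by 5.6% of all genes tested, and with ATF4 by 1.16%. None of the 5 genes most like DDIT3 was among the 5 most like ATF4. Such short lists out of 11587 genes would rarely share a gene, so this does not tell DDIT3 and ATF4 apart.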
